A study of Mus musculus with 6 samples.

Results

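Expression of 33 genes of MHC antigen presentation was examined in mouse lung group 2 innate lymphoid cells (ILC2s), 21 of the class I pathway and 12 of the class II pathway. They were chosen by name, as the chains, peptide suppliers, loading factors and regulators of both pathways, and all 33 were found among the 21825 genes measured. ILC2s are tissue lymphocytes without a rearranged antigen receptor that make type 2 cytokines. Those used here were sorted from lungs of BALB/c mice aged 6 weeks after 3 intraperitoneal injections of IL-33, 1 µg each, and were kept in culture for 48 h with IL-2 and IL-7 at 10 ng/mL each. TNFa was added at 40 ng/mL to 3 samples (TNFa replicates 4, 5 and 6) and PBS to the other 3 (PBS replicates 1, 2 and 3), so the IL-33 priming and the IL-2 and IL-7 were common to both groups. RNA libraries of these 6 samples were sequenced. Separate animals or cultures behind the libraries of a group are not stated, so p-values measure only the spread between these libraries.

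Class I molecules consist of a heavy chain and the light chain beta-2-microglobulin, and show peptides from the cytosol to CD8+ T cells. Proteasomes cut these peptides, the TAP transporter carries them into the endoplasmic reticulum, and tapasin and the trimming peptidase ERAP1 prepare them for loading. Class II molecules pair an alpha with a beta chain, travel with the invariant chain Cd74 to endosomes, and show peptides from taken-up protein to CD4+ T cells. NLRC5 drives class I genes and CIITA drives class II genes, both on promoters occupied by the RFX complex. Mouse ILC2s have been described as carrying class II on their surface, and TNFa as an inducer of class I in many cell types.

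In the data, transcripts of B2m and the classical class I heavy chains were abundant, and class II transcripts were far lower than these with either treatment. The genes that supply and load class I peptides, and B2m, were mostly higher in the TNFa libraries, though short of the test over all genes. The summed heavy chains and the summed class II chains differed little between groups, with log2 ratios of mean CPM, TNFa over PBS, of 0.03 and -0.0094. None of the 33 members passed an adjusted p of 0.05 in the quasi-likelihood test of edgeR, adjusted by Benjamini-Hochberg over all 15719 genes tested, of which 0.102% passed (0.0891% higher and 0.0127% lower with TNFa). All 33 members were tested, and limma-voom called 0 of them and DESeq2 called 3, given at the end. At an unadjusted p under 0.05, where 8.31% of all genes passed (3.68% higher with TNFa and 4.63% lower), 7 class I members and 1 class II member were higher and 0 were lower.

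The libraries held 25089415 to 32487004 counts. TNFa replicate 5 stood apart from the other libraries, with a score of 90.4 on the first principal component (35.6% of the variance) against -22.6 to -14.5 for the other 5. PBS replicate 2 is labelled as a repeat, and why was not given. The 15 ILC2 markers examined summed to 12446 to 13396 CPM (counts scaled by library size) with TNFa and 11733 to 13096 CPM with PBS, led by Il5, Il2ra and Id2. Of the 15, 7 were below all PBS libraries in every TNFa library and 2 above, where 8.35% and 6.83% of all tested genes were. Among them 1, the costimulatory receptor gene Icos, fell in edgeR (-0.78 ± 0.10 on the log2 scale, adjusted p = 0.036), where 0.0127% of all tested genes did. Thy1, a marker often used to sort these cells, was below 5 CPM in all 6 libraries.

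Per length, B2m was among the most abundant genes of these cells. Levels are in TPM, counts scaled to library size and to the merged length of all annotated exons of a gene. B2m reached 9969.8 ± 510.4 TPM with TNFa, rank 5 of the 21638 genes with a length, and 7997 ± 217 TPM with PBS, rank 7 (mean ± SD, n = 3 each). The classical heavy chains followed: H2-D1 had 4434 ± 574 TPM with TNFa and 4603 ± 339.9 TPM with PBS, and H2-K1 had 2084 ± 251 TPM with TNFa and 2002 ± 146 TPM with PBS. Psme2 and Psmb8 came next, Psme2 at 714 ± 105 TPM with TNFa and 497 ± 24.7 TPM with PBS, and Psmb8 at 614 ± 79.9 TPM with TNFa and 548 ± 36.5 TPM with PBS. The lowest class I member was H2-T24, at 15.5 ± 5.25 TPM with TNFa and 11.6 ± 3.82 TPM with PBS. The highest class II member in both groups was the lysosomal protease gene Ctss, at 79.4 ± 21.6 TPM with TNFa (rank 2108) and 66.7 ± 2.22 TPM with PBS (rank 2514). Ciita was near the bottom of the list, at 0.578 ± 0.128 TPM with TNFa and 0.545 ± 0.0610 TPM with PBS. In the same libraries Nlrc5, its class I relative, had 19.2 ± 5.66 TPM with TNFa and 16.8 ± 3.11 TPM with PBS. The 9 heavy chain members together exceeded the 3 class II chain members 129- to 201-fold in TPM with TNFa and 145- to 177-fold with PBS, ranges that overlap. The H2 haplotype of BALB/c mice differs from that of the reference genome, and the effect of this on the ratio was not tested.

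**Figure D1:**
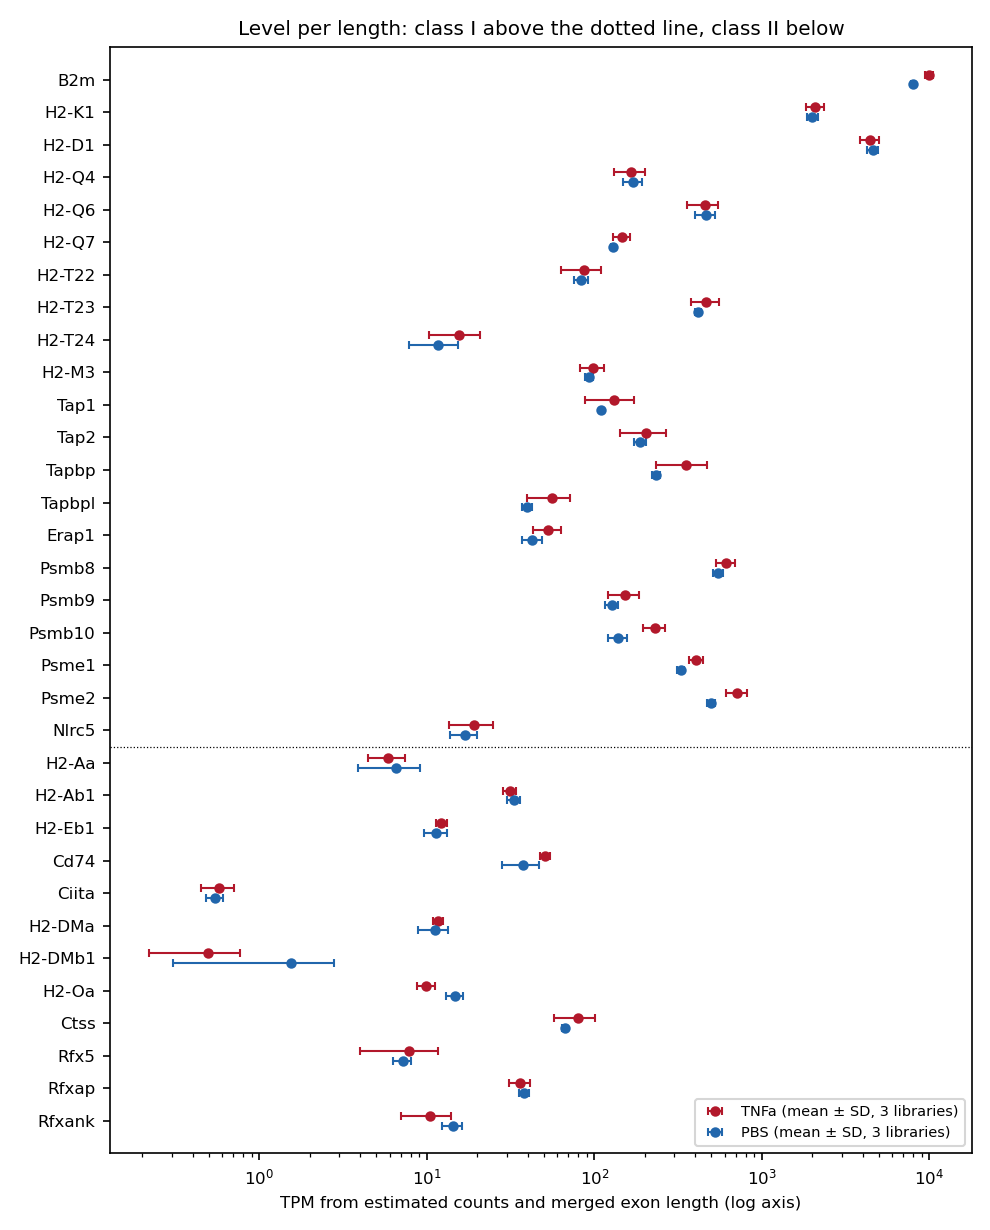
Level per merged exon length of each member (x axis, TPM on a log scale) with TNFa (red, upper point of each row) and PBS (blue, lower point). Points are mean ± SD of 3 libraries, class I above the dotted line and class II below. B2m, H2-D1 and H2-K1 lie to the right of all other members, and the highest class II member, Ctss, lies at 79.4 TPM with TNFa and 66.7 TPM with PBS.

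B2m was separated between groups, and the classical heavy chains among the members were not. B2m (chr2:122147686-122153083, mm10) had 3150.3, 3364 and 3164 CPM in TNFa replicates 4, 5 and 6, against 2713, 2468 and 2372 CPM in PBS replicates 1, 2 and 3. Every TNFa library was above every PBS library, with a log2 fold change of 0.36 ± 0.09 (SE) and an adjusted p of 0.296 in edgeR. H2-D1 (chr17:35262730-35267499), a classical heavy chain, had 4223, 4094 and 4535 CPM with TNFa, against 4615, 4591 and 3837 CPM with PBS. Its groups overlapped and the log2 fold change was -0.02 ± 0.10 (adjusted p = 0.971). H2-K1 (chr17:33996017-34000333), also a classical heavy chain, had 2279.6, 2208 and 2395 CPM with TNFa, against 2296, 2266 and 1901 CPM with PBS. Its groups overlapped too (log2 fold change 0.09 ± 0.10, adjusted p = 0.857 in edgeR). Among the 7 nonclassical heavy chains, H2-Q7 was the one without overlap, at 219, 232 and 249 CPM with TNFa, against 209, 206 and 190.1 CPM with PBS (0.21 ± 0.10, adjusted p = 0.632). The other nonclassical genes, H2-Q4, H2-Q6, H2-T22, H2-T23, H2-T24 and H2-M3, overlapped between groups. Their log2 fold changes ran from -0.01 ± 0.14 for H2-Q4 to 0.45 ± 0.30 for H2-T24, and H2-T23, which encodes the ligand Qa-1 of the NK cell receptor CD94/NKG2A, was at 0.19 ± 0.12.

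Relative to the classical heavy chains of the same library, the light chain stood higher with TNFa. The ratio of B2m to H2-D1 per length was 2.24, 2.46 and 2.09 with TNFa, against 1.76, 1.61 and 1.85 with PBS, 1.30-fold higher by the means. The ratio of B2m to H2-K1 was 4.72, 5.20 and 4.51 with TNFa, against 4.04, 3.72 and 4.26 with PBS, 1.20-fold higher. Neither ratio overlapped between groups, and each had p = 0.1 in a two-sided exact permutation test (0.2 adjusted over the 6 ratios examined), the smallest p that 3 against 3 libraries allow. Summed over the 9 heavy chains, which is less sensitive to how reads of near-identical genes were shared out, the level was 8005 ± 489 CPM with TNFa and 7824 ± 775 CPM with PBS, a log2 ratio of 0.03. The cells came from BALB/c mice, whose H2 haplotype (d) differs from that of the C57BL/6J reference genome (b). The assignment of reads to single H2 genes is therefore uncertain in every library. H2-L, a further heavy chain looked for, was not among the genes measured. Any reads from it would be counted under other genes, H2-D1 and H2-K1 included, or not at all.

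The promoters of B2m and H2-K1 are printed because these genes carry the contrast between light and heavy chain. Both windows run from 250 bases before the RefSeq transcript start to 50 after it (GRCm38.p6), read 5′ to 3′ on the coding strand; B2m is at chr2:122147437-122147736 (plus strand) and H2-K1 at chr17:34000284-34000583 (minus strand). Capitals mark matches, on either strand, to 4 motifs known from MHC promoters: the NF-kB motifs GGGATTCCC and GGACTTTCC, the core AANNGAAA bound by interferon regulatory factors, and the CCAAT box, searched as ATTGG. The motifs were chosen with these promoters in view.

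B2m: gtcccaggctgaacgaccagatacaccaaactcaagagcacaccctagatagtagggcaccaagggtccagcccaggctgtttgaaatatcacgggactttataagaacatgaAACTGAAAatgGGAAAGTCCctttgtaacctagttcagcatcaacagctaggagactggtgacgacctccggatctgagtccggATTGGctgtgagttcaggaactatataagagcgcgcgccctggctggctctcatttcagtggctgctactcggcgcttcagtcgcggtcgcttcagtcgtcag

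H2-K1: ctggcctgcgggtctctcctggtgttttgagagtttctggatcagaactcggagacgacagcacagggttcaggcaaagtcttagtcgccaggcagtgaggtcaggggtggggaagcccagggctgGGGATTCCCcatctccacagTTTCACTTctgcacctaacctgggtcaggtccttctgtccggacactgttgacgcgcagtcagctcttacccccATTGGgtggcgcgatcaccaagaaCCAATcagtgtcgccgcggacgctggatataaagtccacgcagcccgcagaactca

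The B2m window held the reverse complement of GGACTTTCC, starting 126 bases before the transcript start, next to AANNGAAA at 137 bases, and H2-K1 held GGGATTCCC at 124 bases with the reverse complement of AANNGAAA at 104 bases. In neither window do the matches overlap. Windows were available for 25 of the 33 members, 17 of class I and 8 of class II. GGGATTCCC was in 4 of them, those of the heavy chains H2-D1, H2-K1, H2-Q6 and H2-Q7, against 0.353% of all 32851 promoter windows of the table. GGACTTTCC was in that of B2m alone, against 0.344% of all windows. AANNGAAA was in 16, 11 of class I and 5 of class II, against 23.9% of all windows, and the CCAAT box in 19, against 37.4%. Of the 4 heavy chains with GGGATTCCC, H2-Q7 was separated between groups and the other 3 overlapped. These are matches of letters in a window of the C57BL/6J reference and nothing was measured at them.

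The proteasome genes gave the largest difference among the members past the unadjusted threshold. Psmb10 (chr8:105935735-105938444) encodes MECL-1, a catalytic subunit that replaces a constitutive subunit, Psmb7, in the immunoproteasome. It had 125, 155 and 163 CPM with TNFa, against 96.6, 93.0 and 70.5 CPM with PBS. Every TNFa library was above every PBS library, with a log2 fold change of 0.77 ± 0.15, an adjusted p of 0.153 in edgeR and an unadjusted p of 0.00054. Psmb9 (LMP2), which replaces Psmb6, had 191, 191 and 246 CPM with TNFa, against 174, 186 and 152 CPM with PBS (0.29 ± 0.13, adjusted p = 0.612), a narrow separation. Psmb8 (LMP7), the counterpart of Psmb5 and the most abundant of the 3, had 698, 791 and 849.8 CPM with TNFa, against 695, 722 and 615 CPM with PBS (0.20 ± 0.11, adjusted p = 0.693), and its groups overlapped. The 3 together summed to 1136 ± 123 CPM with TNFa and 935 ± 86.5 CPM with PBS.

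Set against the constitutive subunits in the same library, 1 of the 3 immunoproteasome genes gave a ratio without overlap. Psmb10 over Psmb7, per length, was 1.02, 1.05 and 1.32 with TNFa, against 0.846, 0.846 and 0.639 with PBS, 1.45-fold higher by the means (exact permutation p = 0.1, adjusted 0.2). Psmb9 over Psmb6 was 0.345, 0.310 and 0.439 with TNFa, against 0.329, 0.341 and 0.313 with PBS (exact permutation p = 0.5, adjusted 0.7). Psmb8 over Psmb5 was 1.05, 0.990 and 1.39 with TNFa, against 0.982, 1.02 and 1.07 with PBS (exact permutation p = 0.6, adjusted 0.7). The last 2 ratios overlapped between groups, with the highest value of each in TNFa replicate 6. The constitutive genes themselves had log2 fold changes of 0.06 ± 0.13 for Psmb5, 0.15 ± 0.10 for Psmb6 and 0.23 ± 0.11 for Psmb7, with adjusted p-values from 0.615 to 0.935 in edgeR.

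Both subunits of the proteasome activator PA28, a cap that opens the proteasome and favours class I peptides, were higher in every TNFa library. Psme2 (PA28 beta) had 401, 498 and 523 CPM with TNFa, against 355, 309 and 299 CPM with PBS (0.56 ± 0.13, adjusted p = 0.215). Psme1 (PA28 alpha) had 291, 378 and 349 CPM with TNFa, against 286, 269.9 and 239.6 CPM with PBS (0.36 ± 0.12, adjusted p = 0.450). For Psme1 the margin was small, since TNFa replicate 4 was close to PBS replicate 1.

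Peptide loading and trimming genes were also separated between groups, while the transporter genes were not. Tapbp (chr17:33915899-33929292), which encodes tapasin, the bridge between TAP and empty class I molecules, had 440.3, 365 and 616 CPM with TNFa, against 334, 321 and 277 CPM with PBS. The groups did not overlap and the log2 fold change was 0.61 ± 0.18 (adjusted p = 0.356). Tapbpl, for the tapasin-related editor TAPBPR, had 46.5, 39.5 and 60.5 CPM with TNFa, against 35.7, 36.0 and 30.7 CPM with PBS (0.52 ± 0.17, adjusted p = 0.435). Erap1, for the peptidase that trims peptides in the endoplasmic reticulum, had 144, 128 and 161 CPM with TNFa, against 109, 104 and 127 CPM with PBS (0.35 ± 0.13, adjusted p = 0.473). All 3 were highest in TNFa replicate 6 and lowest, within that group, in TNFa replicate 5. For Erap1 the separation was narrow, 127.8 CPM in TNFa replicate 5 against 126.6 CPM in PBS replicate 3. Tap1 and Tap2, the subunits of the transporter, were above all PBS libraries in TNFa replicate 6 but not in TNFa replicate 5. Tap1 (chr17:34187553-34197225) had 243, 211 and 343 CPM with TNFa, against 231, 222 and 208 CPM with PBS (0.27 ± 0.16, adjusted p = 0.723). Tap2 had 272, 226 and 361 CPM with TNFa, against 262, 283 and 237 CPM with PBS (0.14 ± 0.16, adjusted p = 0.867). Nlrc5, the class I transactivator, had 55.6, 49.9 and 76.5 CPM with TNFa, against 43.5, 54.2 and 58.1 CPM with PBS (0.22 ± 0.18, adjusted p = 0.789), with the same single high library.

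Tap1 and Psmb9 lie head to head, and the Tap1 window is printed because the same stretch serves as both promoters: their RefSeq starts have 225 bases between them, and 275 of the 300 bases of each window are shared. It lies at chr17:34187306-34187605 (GRCm38.p6, plus strand), with the CCAAT box, the only one of the 4 motifs matched there, in capitals.

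Tap1: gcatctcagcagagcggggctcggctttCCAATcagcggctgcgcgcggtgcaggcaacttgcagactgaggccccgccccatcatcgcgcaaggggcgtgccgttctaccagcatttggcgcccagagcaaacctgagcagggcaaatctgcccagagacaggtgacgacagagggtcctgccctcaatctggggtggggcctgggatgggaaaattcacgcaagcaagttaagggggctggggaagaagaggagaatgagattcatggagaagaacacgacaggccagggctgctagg

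The ratio of Tap1 to Psmb9 per length was 0.851, 0.740 and 0.933 with TNFa, against 0.890, 0.797 and 0.916 with PBS, with overlap (exact permutation p = 0.7). In the annotation of the deposited table the 2 genes overlap by 212 bases on opposite strands, and reads from that stretch cannot be told apart if counting ignored strand, which is not stated. In all, 19 of the 33 members overlap another gene of the table, including Tapbp with Zbtb22 and Erap1 with Cast. H2-T24 shares 14866 bases with A930015D03Rik on the opposite strand, and reads of these may be mixed if counting ignored strand. A930015D03Rik averaged 13.6 CPM with TNFa and 13.2 CPM with PBS, and H2-T24 averaged 12.6 and 9.18 CPM. Patl2, which spans B2m, averaged 0.528 CPM with TNFa and 2.33 CPM with PBS, far below B2m.

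Across the 21 class I members, 19 had a log2 fold change above 0, against 50.6% of all tested genes, and the median was 0.22, against 0.0047 for all tested genes. In 9 of the 21 every TNFa library was above every PBS library, and in 0 below, where 15.2% of all tested genes were separated, 6.83% in the first direction and 8.35% in the second. Divided by role, 1 of 9 heavy chains (H2-Q7) and 8 of the 12 other class I members were separated upward, with median log2 fold changes of 0.09 and 0.35. The 8 were B2m, Tapbp, Tapbpl, Erap1, Psmb9, Psmb10, Psme1 and Psme2. Leaving out each library in turn, the count of heavy chains was 1 to 3 and that of the other class I members 8 to 9. Without TNFa replicate 5, which leaves 13.5% of all genes separated upward, they were 3 and 9, and without TNFa replicate 6, which leaves 11.9%, they were 1 and 8. Without TNFa replicate 4 or PBS replicate 1, which leave 11.1% and 11.6%, 2 heavy chains were separated, and without PBS replicate 2 or 3, which leave 9.71% and 13.5%, 1 was. These counts describe the members, which share regulators and were not drawn at random.

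**Figure D2:**
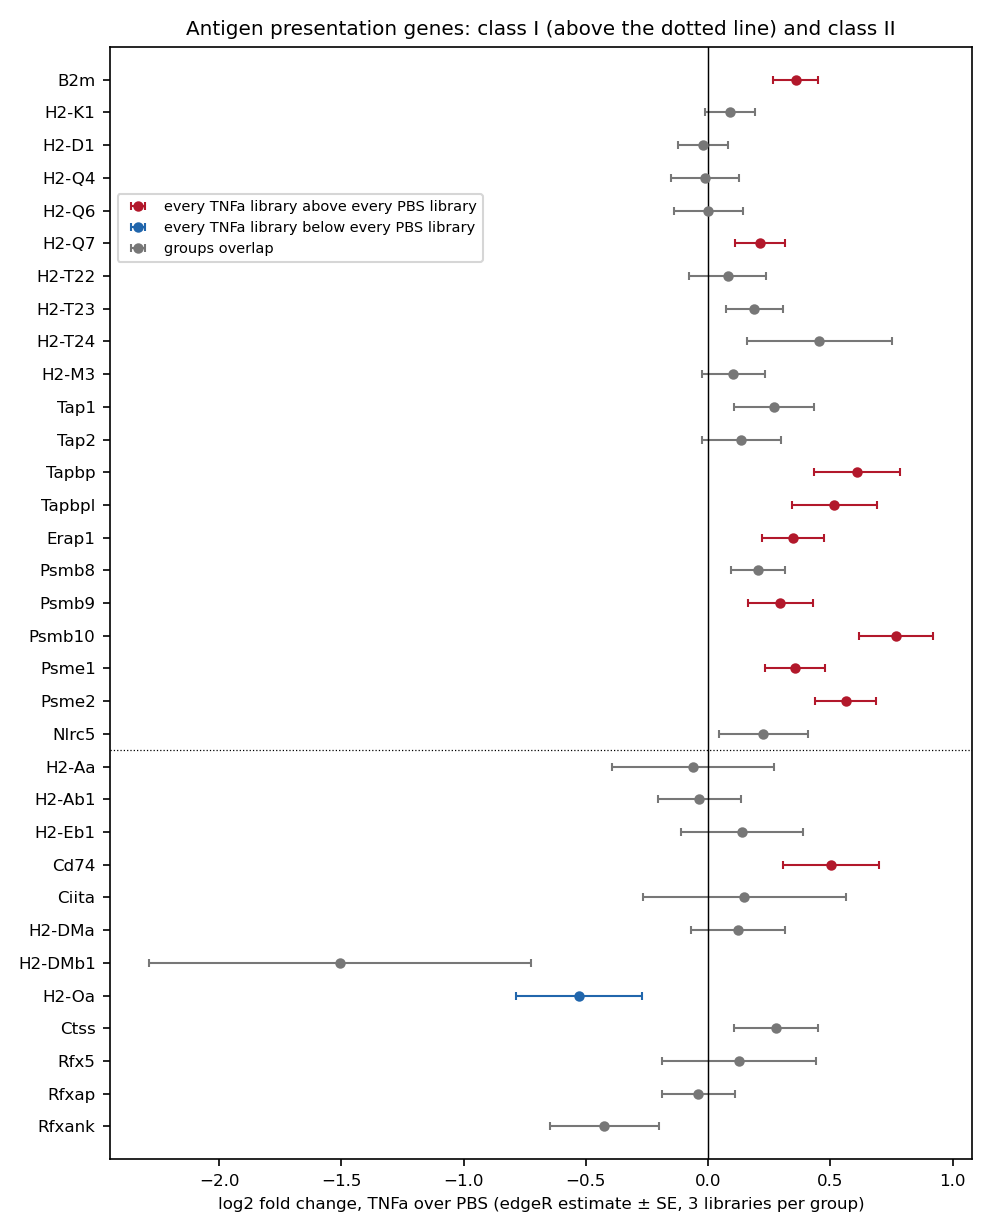
Log2 fold change of each member, TNFa over PBS (x axis; points are edgeR estimates, bars ± SE, 3 libraries per group), with class I above the dotted line and class II below. Red points mark the 10 members with every TNFa library above every PBS library, 9 of class I and Cd74 of class II; the blue point is H2-Oa, the 1 member separated downward, and grey points overlap.

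The class I values were uneven across the TNFa libraries. TNFa replicate 6 was the highest of the 6 libraries for 17 of 21 class I members but for 2 of 12 class II members, against 13.8% of all tested genes. PBS replicate 3 was the lowest for 15 of 21 class I members and 4 of 12 class II members, and the share over all tested genes was not computed. Relative to the PBS mean, the 12 class I members other than heavy chains had median log2 deviations of 0.24, 0.22 and 0.55 in TNFa replicates 4, 5 and 6, and the heavy chains 0.05, -0.04 and 0.21. Without TNFa replicate 6 the log2 fold change of Tap1 was 0.04, of Nlrc5 0.02 and of Tap2 -0.07, while that of B2m was 0.37, Psmb10 0.69, Psme2 0.48 and Tapbp 0.37. The median over class I was then 0.13.

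Irf1, an interferon response gene, and Ifng, a cytokine gene, were highest in the same library. Irf1, a transcription factor of class I and immunoproteasome genes, had 140.4, 99.6 and 247 CPM with TNFa, against 89.2, 94.7 and 98.6 CPM with PBS (0.79 ± 0.27, adjusted p = 0.435). Ifng, the gene of interferon gamma, had 4.07, 1.98 and 12.2 CPM with TNFa, against 0.579, 0.204 and 1.68 CPM with PBS (2.88 ± 0.81, adjusted p = 0.354). Both were separated between groups by a small margin, for Ifng 1.98 CPM in TNFa replicate 5 against 1.68 CPM in PBS replicate 3. Neither passed the test over all genes. They belong to a list of 15 interferon and NF-kB regulators. Of the 15, 6 were separated upward and 2 downward, where 6.83% and 8.35% of all tested genes were. In edgeR 1 of the 15 was called, upward, where 0.0891% of all tested genes were. The part of Irf1 and Ifng in the class I values was not tested. None of the 5 marker lists of other cell types (B cell, T cell, dendritic cell, macrophage and monocyte, epithelium and endothelium) had its highest sum in TNFa replicate 6. Among the TNFa libraries alone, the B cell and T cell sums were highest there. No list of NK cell markers was read, and the part of other cell types in that library was not tested. T cell markers, 10 of 10 in the table, summed to 125 to 137 CPM with TNFa and 158 to 173 CPM with PBS, with TNFa replicate 6 at the upper end of the first range and below all PBS libraries. Epithelium and endothelium markers, 7 of 9 in the table, summed to 147 to 204 CPM with TNFa and 123 to 155 CPM with PBS. Of the 6 tested, 5 had a log2 fold change above 0 and 1 below. Scgb1a1 had 81.0, 0.187 and 46.1 CPM with TNFa, against 0.0341, 6.09 and 8.07 CPM with PBS (3.16 ± 1.84, adjusted p = 0.728 in edgeR).

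**Figure D3:**
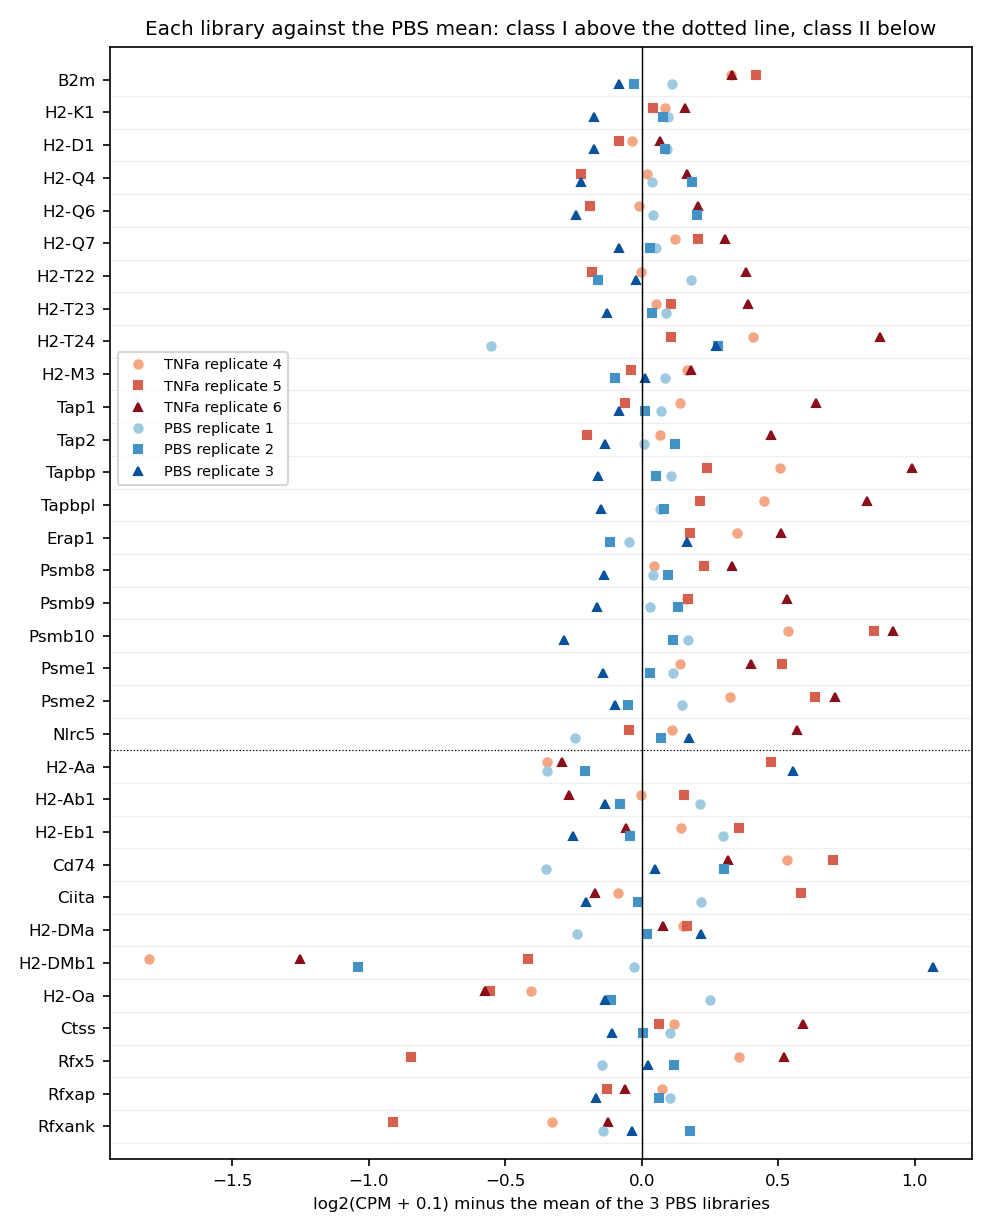
Each library's level of each member as log2(CPM + 0.1) minus the mean of the 3 PBS libraries (x axis), with the TNFa libraries in red shades slightly above the PBS libraries in blue shades in each row, class I above the dotted line. The dark red triangles of TNFa replicate 6 lie farthest right for 17 of 21 class I members and for 2 of 12 class II members.

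**Figure D4:**
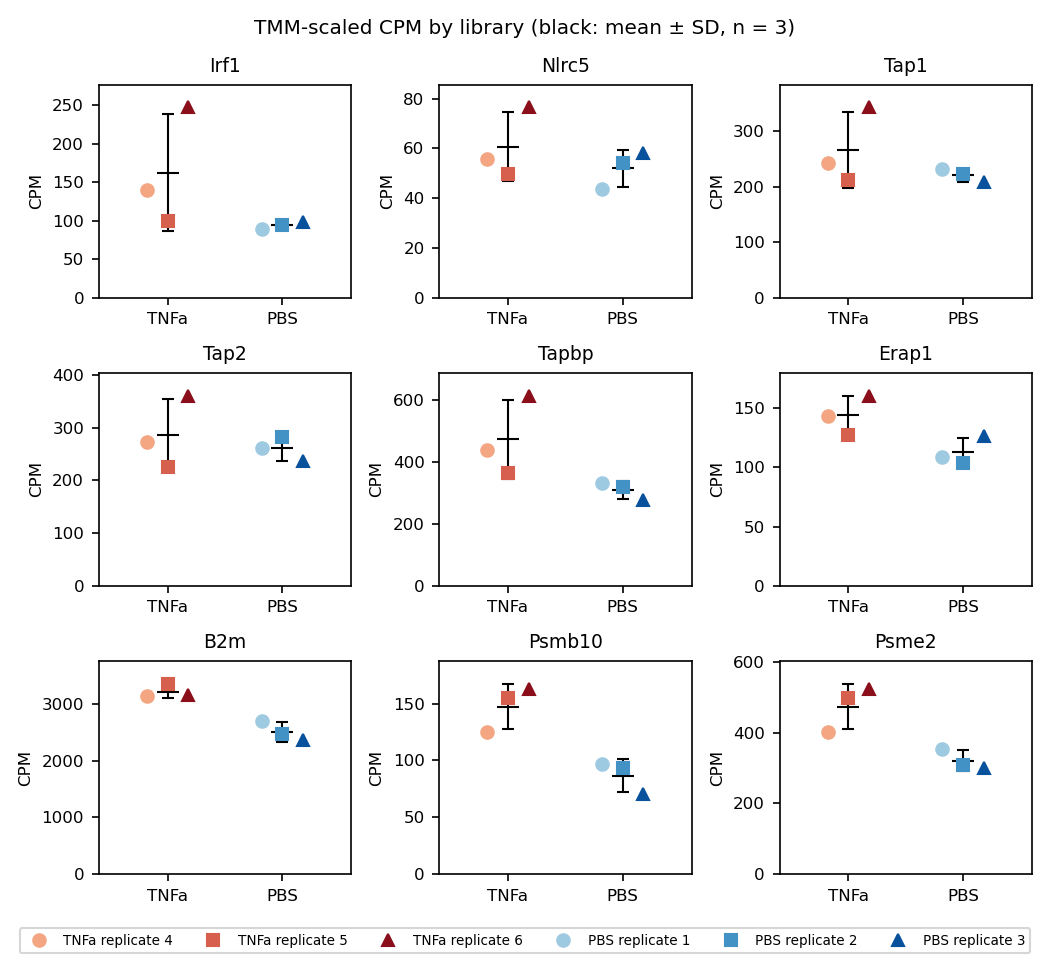
CPM by library for the regulators Irf1 and Nlrc5 and 7 class I pathway genes, TNFa left and PBS right in each panel, with black bars for mean ± SD (n = 3). Irf1, Tap1, Tap2, Tapbp and Nlrc5 are highest by a wide margin in TNFa replicate 6. B2m, Psmb10 and Psme2 lie above the PBS libraries with closer TNFa values, and so does Erap1 by a narrow gap.

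Class II chains were present at low level and did not separate. H2-Ab1, the beta chain of I-A, had 30.9, 34.4 and 25.7 CPM with TNFa, against 35.9, 29.3 and 28.2 CPM with PBS (-0.04 ± 0.17, adjusted p = 0.969). H2-Aa (chr17:34282744-34287827), its alpha chain partner, had 6.76, 12.0 and 7.02 CPM with TNFa, against 6.75, 7.45 and 12.7 CPM with PBS (-0.06 ± 0.33, adjusted p = 0.975). H2-Eb1, the beta chain of I-E, had 8.90, 10.3 and 7.73 CPM with TNFa, against 9.90, 7.80 and 6.74 CPM with PBS (0.14 ± 0.25, adjusted p = 0.918). For H2-Aa 1 library in each group was high, TNFa replicate 5 and PBS replicate 3. The 3 chains summed to 49.4 ± 4.33 TPM with TNFa and 51.0 ± 3.33 TPM with PBS.

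Cd74, the invariant chain, was the class II member that differed most in the upward direction. It had 32.4, 36.5 and 27.9 CPM with TNFa, against 17.5, 27.6 and 23.2 CPM with PBS (0.50 ± 0.20, adjusted p = 0.519). The groups were separated by the gap between TNFa replicate 6 and PBS replicate 2, a small one beside the spread of either group. Ciita, the class II transactivator, had 1.78, 2.88 and 1.67 CPM with TNFa, against 2.22, 1.87 and 1.63 CPM with PBS (0.15 ± 0.42, adjusted p = 0.953), and it overlaps Dexi, which averaged 29.5 CPM with TNFa and 33.8 CPM with PBS. Of the RFX complex, Rfxap was at -0.04 ± 0.15, Rfx5 at 0.13 ± 0.31 and Rfxank at -0.42 ± 0.22 on the log2 scale, with adjusted p-values from 0.683 to 0.963, and all 3 overlapped. Rfx5 was low in TNFa replicate 5, at 7.96 CPM against 13.0 to 20.7 CPM in the other 5 libraries.

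The peptide exchange genes H2-DMb1 and H2-Oa had the lowest fold changes of all members. H2-Oa, a chain of the DO molecule that restrains DM, had 5.65, 5.08 and 5.02 CPM with TNFa, against 8.95, 6.94 and 6.84 CPM with PBS (-0.53 ± 0.26, adjusted p = 0.643), the 1 member for which every TNFa library was below every PBS library. H2-DMa, a chain of the DM molecule that removes the invariant chain remnant, had 15.4, 15.5 and 14.6 CPM with TNFa, against 11.7, 14.0 and 16.1 CPM with PBS (0.12 ± 0.19). H2-DMb1, its partner, was barely detected, at 0.267 CPM in the middle TNFa library and 0.758 CPM in the middle PBS library, on counts of 3.81 to 54.7 per library (-1.51 ± 0.78, adjusted p = 0.672). The estimate was -0.72 without PBS replicate 3 and -2.10 without TNFa replicate 5. Its near-identical neighbour H2-DMb2 averaged 1.16 CPM with TNFa and 1.19 CPM with PBS and overlapped between groups (-0.02 ± 0.57), and reads of the pair cannot be told apart with certainty. Ctss, the protease that cleaves the invariant chain, had 36.0, 34.6 and 49.9 CPM with TNFa, against 35.6, 33.2 and 30.6 CPM with PBS (0.28 ± 0.17, adjusted p = 0.725), and its high value came from TNFa replicate 6.

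Over the 12 class II members, 6 had a log2 fold change above 0 and 6 below, with a median of 0.04. With each library left out in turn the median ran from -0.07 to 0.07 and 1 to 3 members were separated upward and 1 to 2 downward. Upward there were 3 without TNFa replicate 5 and 2 without PBS replicate 1 or 3, where 13.5%, 11.6% and 13.5% of all tested genes were. Downward there were 2 without TNFa replicate 5 or 6 or PBS replicate 1 or 2, where 13.9%, 13.6%, 13.0% and 12.2% of all tested genes were, and 1 without TNFa replicate 4 or PBS replicate 3, where 13.4% and 14.0% were. The H2-Aa promoter is printed for contrast with that of H2-K1, since H2-Aa encodes a class II chain next to the class I genes on chromosome 17. Its window, at chr17:34287774-34288073 (GRCm38.p6, minus strand), matched the CCAAT box 48 bases and AANNGAAA 213 bases before the start, in capitals, and neither NF-kB motif. The CCAAT box is a known element of class II promoters.

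H2-Aa: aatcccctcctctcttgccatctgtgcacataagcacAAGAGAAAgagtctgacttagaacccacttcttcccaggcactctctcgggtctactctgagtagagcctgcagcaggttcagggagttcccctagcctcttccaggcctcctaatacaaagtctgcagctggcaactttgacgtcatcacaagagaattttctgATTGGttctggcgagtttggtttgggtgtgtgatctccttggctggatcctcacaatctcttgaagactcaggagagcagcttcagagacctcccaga

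Markers of other cell types known to carry class II were read in the same libraries. B cell markers, 7 of 8 in the table, summed to 18.1 to 19.2 CPM with TNFa and 22.7 to 23.9 CPM with PBS, mostly Cd79b. Blk was below 1 CPM in all 6 libraries, and Cd79a and Blk were at 0 in some library. Dendritic cell markers, 8 of 10 in the table, summed to 118 to 137 CPM with TNFa and 87.5 to 108 CPM with PBS, mostly Ccr7 and Xcr1, with Flt3, Siglech, Fscn1 and Batf3 below 1 CPM throughout. Macrophage and monocyte markers, 9 of 11, summed to 37.9 to 62.1 CPM with TNFa and 50.6 to 109 CPM with PBS, and Mrc1 and Fcgr1 were below 1 CPM. The dendritic cell sum was carried by Ccr7, a chemokine receptor gene, at 103, 93.9 and 96.4 CPM with TNFa, against 63.9, 57.9 and 45.7 CPM with PBS. Without Ccr7, left out after its values were seen, the other 7 summed to 23.98 to 34.9 CPM with TNFa and 38.6 to 44.4 CPM with PBS. Most of this sum was Xcr1, which averaged 24.5 CPM with TNFa and 37.5 CPM with PBS. Xcr1 was lower in every TNFa library (log2 fold change -0.61 ± 0.15, adjusted p = 0.273 in edgeR). Zbtb46, at 1.29 CPM or less, was higher in every TNFa library (1.31 ± 0.64, adjusted p = 0.645). Of the 6 dendritic cell markers tested, Ccr7 included, 4 had a log2 fold change above 0 and 2 below. The part of other cell types in the class II values was not tested. In such bulk RNA, fewer cells of a type and less RNA per cell cannot be told apart.

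Further genes of both pathways gave 0 calls in edgeR. Of 31 other class I genes listed (heavy chains, constitutive proteasome subunits, chaperones and peptidases), 26 were tested, 18 were above 0 and 8 below on the log2 scale, with a median of 0.07, and 4 were separated upward, 0 downward, where 6.83% and 8.35% of all tested genes were. Those 4, named after their values were seen, were Psmb6, Psmb7, H2-T-ps and Calr, which encodes the chaperone calreticulin. None of the 26 reached an unadjusted p under 0.05. Of 23 other class II genes, 19 were tested, 7 were above 0 and 12 below, with a median of -0.11, and 3 were separated downward, 0 upward, where 8.35% and 6.83% of all tested genes were. Those 3, named after their values were seen, were the lysosomal proteases Ctsb, Ctsd and Lgmn. Ctsb had 234, 221 and 248 CPM with TNFa, against 300.1, 289 and 299.95 CPM with PBS (-0.34 ± 0.10, adjusted p = 0.354), with no overlap, and Ctsb and Lgmn were the 2 with an unadjusted p under 0.05, as 4.63% of all tested genes were in that direction. H2-Ea-ps, the I-E alpha chain gene, which is a pseudogene in the reference strain, had 1.30, 1.23 and 2.30 CPM with TNFa, against 3.65, 2.42 and 2.22 CPM with PBS (-0.77 ± 0.43, adjusted p = 0.700). H2-Ob, the partner of H2-Oa, was below 1 CPM in every library.

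The calls moved with the tool. DESeq2, which passed 1.49% of the 17151 genes it tested (0.665% higher with TNFa), called 3 class I members, all higher: Psmb10 (adjusted p = 0.0025), Psme2 (adjusted p = 0.011) and B2m (adjusted p = 0.033). Over all 12 alternatives their adjusted p-values ranged up to 0.554, 0.827 and 0.911, and these were the lowest. In edgeR without TNFa replicate 5, which passed 0.406% of genes, Tapbp was the 1 member called, at a log2 fold change of 0.76 (adjusted p = 0.038, the lowest of its 12 alternatives, which reached 0.911). Class II members had 0 calls in each of these.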

How the data were processed

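RNA was measured in 6 libraries, 3 with TNFa and 3 with PBS. The authors deposited estimated counts per gene from Partek's expectation-maximization quantification, per the file headers; the submitters' processing notes also name CASAVA 1.8.2, STAR 3.5.3 and mm10. For the annotation release and strand handling, these sources give nothing. Of the deposited values, 41.7% were whole within 0.01. Counts were rounded for edgeR 4.0.16 (R 4.3.3): filterByExpr (minimum count 10, total 15), TMM scaling, robust quasi-likelihood test, Benjamini-Hochberg adjustment over 15719 genes, threshold 0.05. CPM are TMM-scaled. TPM used merged exon lengths of GENCODE M21, which held 21638 of 21825 gene names with a length. Coordinates are the table's (mm10, 1-based, its end minus 1), and 7 members differ from GENCODE M21. Promoters came from RefSeq. Within-library ratios were compared by two-sided exact permutation tests. The tests across genes were first tried on simulated data. All members were named. Of other class I and class II genes, those fixed by role or past the threshold were to be named, and those separated between groups were added after their values were seen. Members and lists were chosen with earlier results of these data known. Alternatives used DESeq2 1.42.0, limma-voom 3.58.1, other scalings and filters, and each library left out. Some listed genes are not reported here.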

Additional observations from a re-analysis of the deposited data

How the results depend on the processing

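The count of called genes over the whole table was 16, and was 3 with no filter on low counts, 25 among genes with a mean of at least 5 CPM, 255 with DESeq2, and 1 to 67 with each library left out, the last without TNFa replicate 5. Class I members called numbered 0, against 3 with DESeq2 and 0 to 1 with each library left out (Tapbp, without TNFa replicate 5); class II members called numbered 0 throughout. The class II median log2 fold change ran from -0.069 (without TNFa replicate 5) to 0.066, and the class I median from 0.13 (without TNFa replicate 6) to 0.28. Over the 33 members and 12 alternatives, 364 of 394 values kept direction and side of the threshold, 4 passed it newly and 26 changed sign, in 10 members. With upper-quartile scaling the log2 fold changes of H2-D1, H2-Q4 and H2-Ab1 were 0.011, 0.017 and 0.0012. H2-Q6 was at -0.0086 with no filter and -0.0011 with DESeq2, and H2-Q4 at 0.0068 with a mean of at least 5 CPM. With each library left out, the range was -0.11 to 0.025 for H2-D1, -0.12 to 0.083 for H2-Q4, -0.11 to 0.10 for H2-Q6, -0.10 to 0.19 for H2-T22, -0.067 to 0.28 for Tap2, -0.38 to 0.27 for H2-Aa, -0.14 to 0.080 for H2-Ab1, -0.15 to 0.29 for Ciita, -0.13 to 0.44 for Rfx5 and -0.12 to 0.013 for Rfxap. The log2 ratio of summed heavy chains ran from -0.05 to 0.08. Counts of separated members, chosen as alternatives after seeing the data, were 1 to 3 for heavy chains and 1 to 3 for class II. The cause of these differences was not tested. No paired analysis was possible because no replicate number occurs in both groups. With a mean of at least 5 CPM, Ciita and H2-DMb1 were not tested. H2-DMb1 rested on 3.81 to 54.7 counts per library, the lowest depth among the members.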
